A study of Mus musculus with 4 samples.

Results

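The lipid phosphate phosphatase genes examined were Plpp1, Plpp2, Plpp3, Plppr4, Lpin1 and Lpin2, 6 of the 21887 protein-coding genes of the RefSeq annotation. Peaks of the nuclear protein PHF2 were taken at each gene body with 5 kb on either side, in mm10 coordinates. The family was chosen by the authors' fold enrichment at Plpp3 and Plpp1, which carry some of the highest PHF2 peaks, so that the presence and height of those peaks describe the choice and are not results. The method was CUT&RUN, where a nuclease tethered to an antibody cuts out the DNA next to the bound protein, and the tissue was the gastrocnemius of the calf, from male C57BL/6 mice aged 4 weeks. The KO group was Phf2 flox/flox with Acta1 Cre, and the Ctrl group was Phf2 flox/flox without Cre. An antibody to PHF2 and a background IgG were used on each genotype, so that KO PHF2, Ctrl PHF2, KO IgG and Ctrl IgG had 1 library each. Acta1 Cre is active in muscle fibres, and whole muscle also holds vessel, stromal and satellite cells in which Phf2 is not targeted. No test between genotypes is possible with 1 library a group, and the intervals below cover counting error only.

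Lipid phosphate phosphatases of the PLPP family are membrane enzymes that remove the phosphate from signalling lipids such as lysophosphatidic acid and sphingosine 1-phosphate, and so end their action at cell surface receptors. The PLPPR proteins resemble them but lack key catalytic residues. Lipins are a separate family that converts phosphatidic acid to diacylglycerol during triacylglycerol and phospholipid synthesis, and lipin 1, the product of Lpin1, is the main form in skeletal muscle. PHF2 is a chromatin protein with a PHD finger, which binds methylated histone H3, and a JmjC demethylase domain.

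The authors' lists held 161 KO PHF2, 1621 Ctrl PHF2, 152 KO IgG and 77 Ctrl IgG peaks. Read totals are unknown, and the sequence tags at each PHF2 summit were counted back from the deposited fold enrichment and p-value. Their median was 15 in both PHF2 lists. Peak lists do not measure loss of Phf2 or the cell types in the tissue. Of 18 marker genes for fibres and other muscle cells, Ttn of the fibre and Cdh5 of the endothelium had a Ctrl PHF2 peak in their window, and no marker had a KO PHF2 peak. Among all protein-coding genes 0.713% had a KO PHF2 peak and 7.38% a Ctrl PHF2 peak.

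The promoter of Plpp3 is shown first because it is the member promoter that both PHF2 lists reach, with those of its relative Plpp2 and of Lpin2 for comparison, where no peak was called. Each is the RefSeq GRCm38.p6 window from 250 bases before to 50 bases after an annotated start, and GRCm38 is the assembly behind mm10. The Plpp3 window is chr4:105157097-105157396 on the plus strand, the Plpp2 window chr10:79533738-79534037 on the minus strand and the Lpin2 window chr17:71183282-71183581 on the plus strand. Capitals mark bases inside the Ctrl PHF2 peak, and there are none in the Plpp2 and Lpin2 windows.
Plpp3: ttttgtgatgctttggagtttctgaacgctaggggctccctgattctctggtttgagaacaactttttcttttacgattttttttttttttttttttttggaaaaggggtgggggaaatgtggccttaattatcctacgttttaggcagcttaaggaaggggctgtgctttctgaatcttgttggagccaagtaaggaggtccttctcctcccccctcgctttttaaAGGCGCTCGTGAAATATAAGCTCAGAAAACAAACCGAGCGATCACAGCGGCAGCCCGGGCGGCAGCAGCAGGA
Plpp2: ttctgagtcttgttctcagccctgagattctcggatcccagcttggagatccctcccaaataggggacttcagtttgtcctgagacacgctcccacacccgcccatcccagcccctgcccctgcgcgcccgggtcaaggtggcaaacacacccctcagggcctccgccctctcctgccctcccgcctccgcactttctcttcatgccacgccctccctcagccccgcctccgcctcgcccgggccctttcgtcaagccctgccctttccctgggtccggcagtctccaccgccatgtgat
Lpin2: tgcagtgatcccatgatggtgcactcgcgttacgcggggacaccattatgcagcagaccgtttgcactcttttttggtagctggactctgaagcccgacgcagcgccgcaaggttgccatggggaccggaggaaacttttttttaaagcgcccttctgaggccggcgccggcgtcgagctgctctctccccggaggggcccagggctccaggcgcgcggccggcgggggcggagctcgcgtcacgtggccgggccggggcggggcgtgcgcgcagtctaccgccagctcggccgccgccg

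The Ctrl PHF2 peak covered the last 73 bases of the Plpp3 window, and the KO PHF2 peak its last 2 bases, so that both peaks lay almost wholly downstream of the start. The covered bases held 58.9% G+C and 7 CpG dinucleotides, and the other 227 bases 41.9% and 4. In the whole window G+C was 46.0%, which is lower than in most windows that PHF2 peaks reached. None of the 43 promoter windows that overlapped a KO PHF2 peak, and 17 of the 934 that overlapped a Ctrl PHF2 peak (1.82%), had a lower G+C. Median G+C was 72.3% in the windows with a KO PHF2 peak, 67.7% in those with a Ctrl PHF2 peak and 52.3% in those with neither. In the windows of the members without a peak, G+C was higher than at Plpp3 except in the third Lpin2 window. Their CpG counts lay on both sides of the 11 CpG of the Plpp3 window. The Plpp2 window had 65.3% G+C and 17 CpG, that of Lpin1 55.3% and 2, and that of Plppr4 47.3% and 4. The Lpin1 window belongs to a start inside the gene, at 16610966 on the minus strand. No window was available at the higher-coordinate end of Lpin1, 16653903. Lpin2 has 3 annotated windows, of which the first, shown above, had 68.7% and 37, the second 80.7% and 54, and the third 45.0% and 4. The start of the third, at 71204654, also lies well inside its gene.

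**Figure D1:**
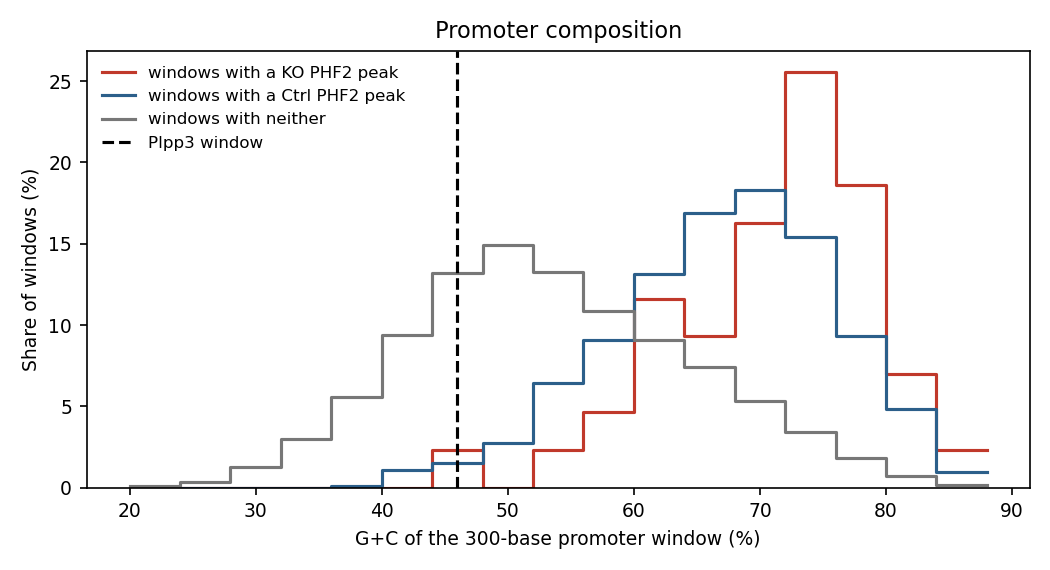
Share of promoter windows (y axis, %) by their G+C (x axis, %), in bins of 4 percentage points, for windows that overlap a KO PHF2 peak (red), a Ctrl PHF2 peak (blue) or neither (grey). The dashed line marks the Plpp3 window at 46.0%, at the low edge of both sets with a peak. Some genes have several windows.

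Motifs were searched on both strands. The Plpp3 window held 1 GC box (GGGCGG), which begins at base 34 counting from the start as 1, inside the Ctrl peak. This motif was present in 35.7% of all 32851 windows and in 74.5% of those overlapping a Ctrl PHF2 peak. The TATA box TATAAA, in 13.6% of all windows, had no match in it, nor had the CCAAT box (37.4%). The E-box CANNTG, which 72.3% of all windows hold, was also without a match, and so was its special case CACGTG (7.15%). The AP-1 motif TGANTCA (7.81% of windows) and the CRE motif TGACGTCA (1.79%) were not found either. The Plpp2 window had 2 GC boxes and 1 CANNTG. In Lpin2 the first window had 2 GC boxes and a CACGTG starting 9 bases before the start, the second had 1 GC box and no CACGTG, and the third had neither but 3 CCAAT boxes. A match is a description of these letters and not a binding site.

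Counted by gene, a KO PHF2 peak was called at 1 of the 6 members and a Ctrl PHF2 peak at 2. The shares of all protein-coding genes were 0.713% for KO PHF2 and 7.38% for Ctrl PHF2, as above. Among genes at least as long as the members' median of 66.7 kb, the shares were 2.36% and 16.2%. Nothing is read from the members' counts, since the peaks chose the members. The KO PHF2 peak at Plpp3 overlapped the Ctrl PHF2 peak there, while Plpp1 had a Ctrl PHF2 peak and no KO PHF2 peak. Both patterns occur at other genes, with 0.576% of genes having both kinds of peak in their window, overlapping or not, and 6.8% having a Ctrl PHF2 peak alone. Neither IgG list had a peak at any of the 6 members, where 0.155% of all genes had a KO IgG peak and 0.064% a Ctrl IgG peak.

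**Figure D2:**
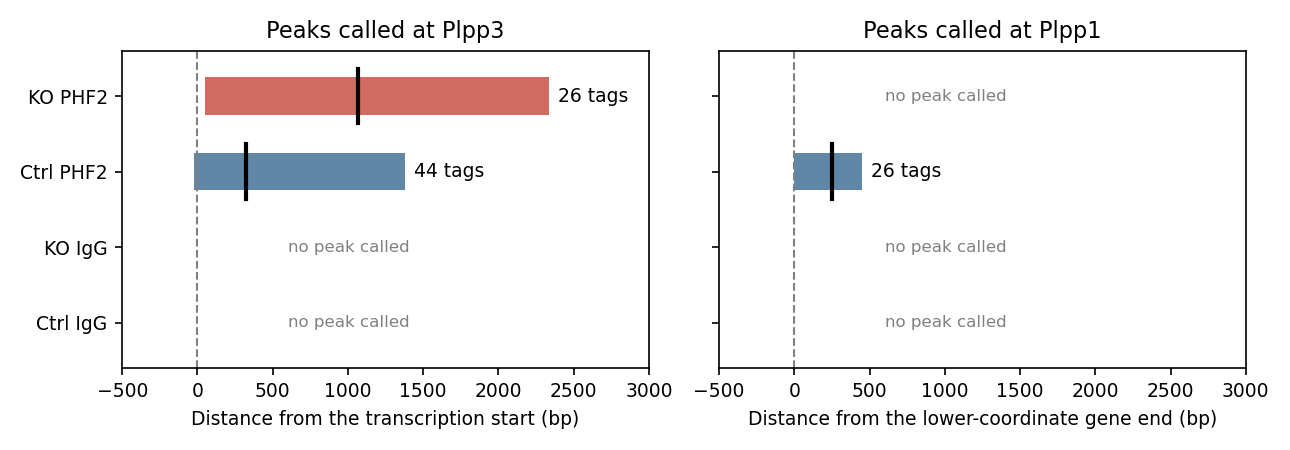
Peaks called at Plpp3 (left) and Plpp1 (right) in the 4 libraries, drawn to scale as bars. The x axis is the distance in bp from the Plpp3 transcription start or from the lower-coordinate end of Plpp1, black ticks are summits and the numbers are tags at the summit. The KO peak at Plpp3 reaches farther into the gene than the Ctrl peak, and Plpp1 has a Ctrl PHF2 peak only.

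Plpp3 (Gene ID 67916, chromosome 4, 105157347 to 105232767) encodes the phosphatase LPP3, which is known for degrading lysophosphatidic acid at the surface of endothelial and other cells and is required for vascular development in the mouse. In the KO PHF2 library its peak ran from 105157395 to 105159683, with a fold enrichment over the local background of 12.5, a -log10 p of 20.9 and a summit of 26 tags (17.0 to 38.1, the exact 95% Poisson interval). In the Ctrl PHF2 library the peak ran from 105157324 to 105158726, with a fold enrichment of 18.3, a -log10 p of 37.4 and 44 tags (32.0 to 59.1). The fold enrichments are the authors' own and are relative to each library's local background, which in scaled tags was 0.343 in KO and 0.613 in Ctrl, so they rank peaks within a list and are not set against each other. Each was first of its list by fold enrichment and by -log10 p. By tags, the Ctrl summit was also first, ahead of 40 at the next, and the KO summit shared second place in its list, below a summit of 27 tags.

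The KO peak at Plpp3 was 2289 bp wide and the Ctrl peak 1403 bp. It was the widest of the 161 KO PHF2 peaks, ahead of one of 1954 bp, while the Ctrl peak was 116th of 1621 by width. The peaks overlapped by 1332 bp, which is 58.2% of the KO peak and 94.9% of the Ctrl peak. Across the 114 Ctrl PHF2 peaks that overlap a KO PHF2 peak, the KO peak was wider in 19 and narrower in 95. Where several KO peaks overlapped a Ctrl peak, here and below, only the KO peak of highest fold enrichment was compared. Some KO peaks were compared with more than 1 Ctrl peak. Only 1 of the 114, which is Plpp3 itself, had a KO peak wider by 886 bp or more.

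**Figure D3:**
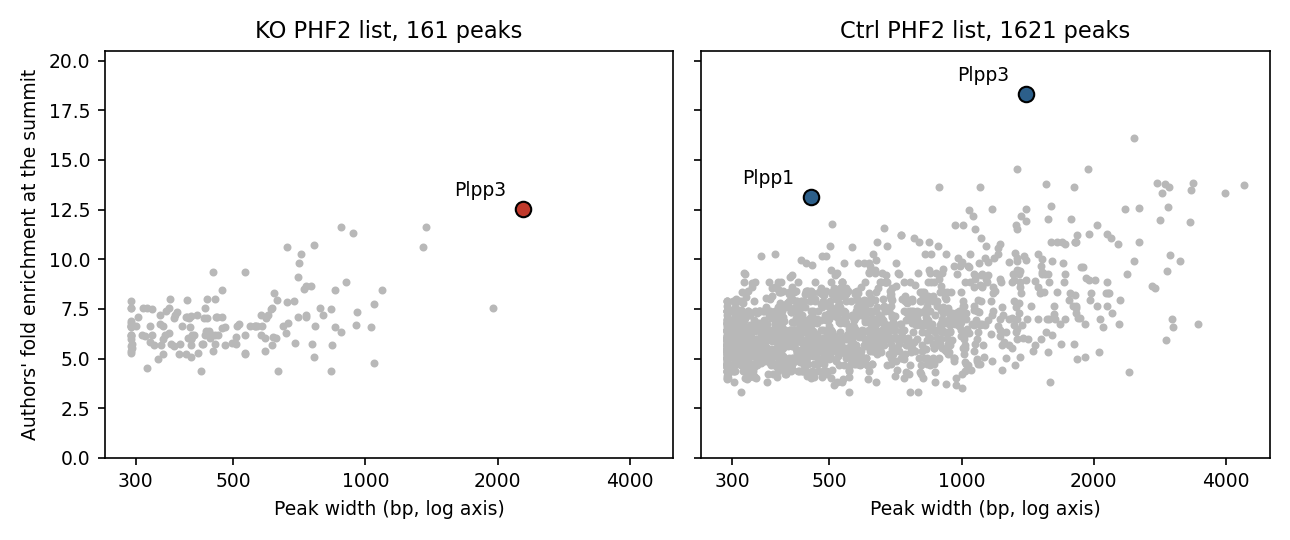
The authors' fold enrichment at the summit (y axis) against peak width in bp (x axis, log scale) for every KO PHF2 peak (left) and every Ctrl PHF2 peak (right), with members of the family in colour. The Plpp3 peak is the highest point of each list and the widest of the KO list, and the Plpp1 peak stands at 13.1 with a width of 454 bp.

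The Plpp3 summits lay at different places. The KO summit, at 105158411, was 1064 bp downstream of the annotated start, and the Ctrl summit, at 105157672, was 325 bp downstream. They were 739 bp apart, where the median distance between the KO and Ctrl summits of the 114 shared Ctrl peaks was 275 bp (quartiles 118 and 532) and 17 were farther apart than at Plpp3. Summits downstream of a start were common in both lists. Positions were taken for 154 of the 161 KO and 1565 of the 1621 Ctrl peaks, those on chromosomes with promoter windows in the table used. On these chromosomes too some genes have no window, Plpp1 among them, so the list of starts is incomplete. Of their summits within 2000 bp of a start, 82.4% of 119 in KO and 77.0% of 1222 in Ctrl were downstream, at median positions of 478 and 236 bp. Of these, 18 KO summits lay farther downstream than the KO summit of Plpp3, and 447 Ctrl summits lay farther than its Ctrl summit. The annotation used has no exons, so exon and intron were not told apart.

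The ratio of KO to Ctrl tags at the Plpp3 summits was 0.591 (exact conditional interval 0.349 to 0.981). The KO library was 1.01 times the size of the Ctrl library as inferred from the caller's scaling, and the ratio corrected for this was 0.583. These tags come from the values that chose the gene, among them the highest Ctrl summit, so the ratio is a description and not a test between genotypes. Over all 114 shared Ctrl peaks the median ratio was 0.722 (quartiles 0.587 and 0.889), and the KO summit had more tags than the Ctrl summit in 13. The interval covers counting error in these 2 libraries and not the spread between animals, and the summits compared are not at the same base.

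**Figure D4:**
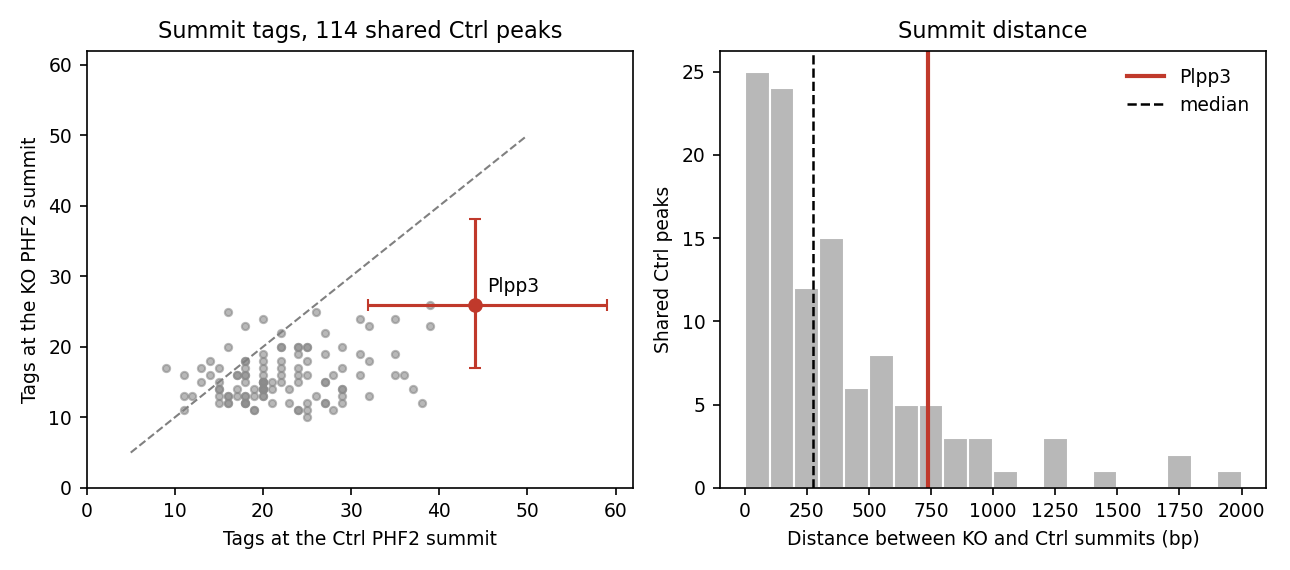
Left, tags at the KO PHF2 summit (y axis) against tags at the Ctrl PHF2 summit (x axis) for the 114 Ctrl PHF2 peaks that overlap a KO PHF2 peak, with equality as the dashed line and exact Poisson 95% intervals on Plpp3. Right, number of these peaks (y axis) by the distance in bp between the KO and Ctrl summits (x axis), where Plpp3 stands at 739 bp and the median at 275 bp.

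Outside the window of Plpp3, the closest other KO PHF2 peak lay 1752 kb from its KO peak. The closest other Ctrl PHF2 peak, from 105108838 to 105109684, ended 47.7 kb before the gene and had a fold enrichment of 4.66 with 20 tags. It lay inside Prkaa2, near the higher-coordinate end, a gene for a catalytic subunit of the energy sensor AMPK, and no KO PHF2 peak was called there.

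Plpp1 (Gene ID 19012, chromosome 13, 112800777 to 112867894) encodes LPP1, a widely expressed member of the same enzyme family. Its Ctrl PHF2 peak ran from 112800774 to 112801227, with a fold enrichment of 13.1, a -log10 p of 22.2 and 26 tags (17.0 to 38.1). The summit, at 112801029, was 252 bp inside the lower-coordinate end of the gene. The closest KO PHF2 peak lay 11033 kb from the gene. The lowest number of tags at a KO PHF2 summit was 10, so a smaller KO signal at Plpp1 would not have been called, and KO tags at this site were not measured.

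The peak at Plpp1 was 454 bp wide, 932nd of 1621 Ctrl PHF2 peaks by width, while it was 17th by fold enrichment, over the lowest local background of the list (0.361 scaled tags), and 65th by tags. Of the 15 Ctrl PHF2 peaks with 26 tags, 2 were narrower. Among the 20 Ctrl PHF2 peaks of highest fold enrichment it was the narrowest, with the next at 888 bp, the widest at 4393 bp and the median at 2504 bp. Of these 20 peaks, 12 overlapped a KO PHF2 peak. Of the 15 with 26 tags, Plpp1 included, 2 did so (13.3%, Wilson interval 3.74 to 37.9). Of all 79 Ctrl PHF2 peaks with at least 26 tags, 31 did so (39.2%, Wilson interval 29.2 to 50.3). Of these 79, the 5 no wider than the Plpp1 peak, itself included, had 0 such overlaps (Wilson interval 0 to 43.4). The 74 wider peaks had 31 (41.9%, Wilson interval 31.3 to 53.3). The intervals overlap, both cuts were set by the Plpp1 peak, and a link between width and KO overlap was not tested. Over all Ctrl PHF2 peaks 7.03% overlapped a KO PHF2 peak.

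The other 4 members had no PHF2 peak in either genotype. For Plpp2 (Gene ID 50784, chromosome 10, 79526424 to 79533787), which encodes LPP2, the closest peaks lay 13627 kb away in KO and 519.9 kb away in Ctrl, the Ctrl peak at Gpx4 and Sbno2. For Plppr4 (Gene ID 229791, chromosome 3, 117319145 to 117360876), which encodes a neuronal PLPPR protein of excitatory synapses, they lay 9236 kb away in KO and 657 kb away in Ctrl, the Ctrl peak at Mfsd14a. Both genes were thus far outside the 5 kb limit.

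The lipin genes were also without a peak. Lpin1 (Gene ID 14245, chromosome 12, 16535669 to 16653903) is the longest member, at 118235 bp, and its closest peaks lay 241 kb away in both PHF2 libraries, at Rock2. The KO peak there had a fold enrichment of 6.64 with 13 tags, and the Ctrl peak one of 10.9 with 32 tags. Each fold is relative to the local background of its own library. Lpin2 (Gene ID 64898, chromosome 17, 71183532 to 71249818), which encodes lipin 2, had its closest KO PHF2 peak 6582 kb away and its closest Ctrl PHF2 peak 163.5 kb away, at the M-band gene Myom1 (fold enrichment 5.66). A missing peak means that none was called, and the signal at these genes was not measured.

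The wider pathway was represented by 61 other genes of phosphatidic acid, lysophosphatidic acid and sphingosine phosphate metabolism and signalling. A KO PHF2 peak was called at 0 of them, where the share of all protein-coding genes was 0.713%. This count leaves room for a share of 4.92% (3 divided by the number of genes), so it does not set the pathway apart. A Ctrl PHF2 peak was called at 5 (8.20%, Wilson interval 3.55 to 17.8), close to the 7.38% of all protein-coding genes. The 8 other PLPP and PLPPR genes had no PHF2 peak, nor did Lpin3 or either subunit gene of the lipin phosphatase, Ctdnep1 and Cnep1r1. No gene of the acylation (9 genes), triacylglycerol synthesis (4) or phospholipase D (3) lists had a PHF2 peak, and Mogat1, a monoacylglycerol acyltransferase gene, had a KO IgG peak. These lists are short, and nothing is read from their zeros. The upper Wilson limits of their Ctrl shares, from 29.9% for acylation to 56.1% for the lipin and phospholipase D lists, all exceed 7.38%.

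The 5 genes with a Ctrl PHF2 peak act at several steps. Cds2, a CDP-diacylglycerol synthase gene, had a fold enrichment of 7.32 and 15 tags (8.40 to 24.7) at chromosome 2, 132263325 to 132263943. Its summit lay 352 bp downstream of an annotated Cds2 start inside the gene. Dgkh, which encodes a diacylglycerol kinase that makes phosphatidic acid, had 7.02 and 14 tags (7.65 to 23.5), with its summit 277 bp inside the gene. Lpar6, a lysophosphatidic acid receptor gene, had 6.94 and 13 tags (6.92 to 22.2), in a peak that also lies in the window of Rb1, the retinoblastoma gene. Spns2, the sphingosine 1-phosphate exporter gene, had 4.72 and 13 tags (6.92 to 22.2), with the summit 182 bp inside its higher-coordinate end. Sphk2, a sphingosine kinase gene, had 4.31 and 25 tags (16.2 to 36.9), in a peak outside the gene that is shared with Dbp, a clock output gene, and Car11. Among these genes only Sphk2 had a summit near the 26 tags of Plpp1, and its fold enrichment was 1570th of 1621. That summit lay 348 bp downstream of the annotated start of Dbp.

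**Figure D5:**
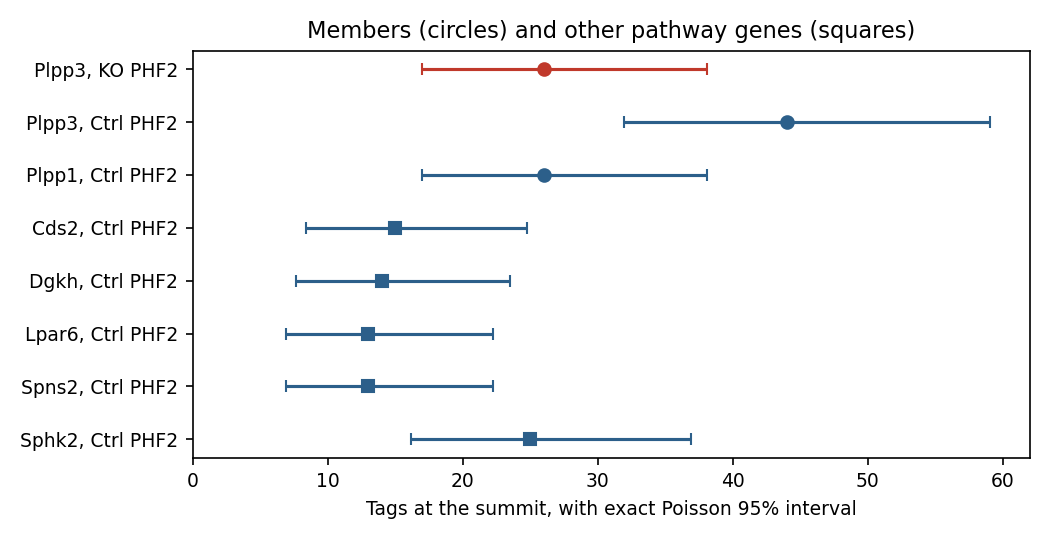
Tags at the summit (x axis) with exact Poisson 95% intervals for each PHF2 peak at a member (circles) and for the pathway genes with a Ctrl PHF2 peak (squares), with KO in red and Ctrl in blue. Plpp3 has 26 tags in KO and 44 in Ctrl, and the pathway genes 13 to 25 in Ctrl.

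Genes with the same pattern as Plpp3 were sought by the number of peaks in each of the 4 libraries and then by the ranks of their highest PHF2 peaks. With Plpp3, 82 genes had 1 KO PHF2 peak, 1 Ctrl PHF2 peak and no IgG peak, of 126 with both kinds of PHF2 peak and 21887 in all. Neighbouring genes that share a peak were counted separately. The closest by rank was Foxo1, a transcription factor gene downstream of insulin, at rank 4 of the KO list and 16 of the Ctrl list. Next came Nudt4, which encodes a diphosphoinositol polyphosphate hydrolase, at ranks 26 and 3, then Ppp3ca, a calcineurin subunit gene, at 7 and 199. Spry1, a Sprouty feedback inhibitor gene, stood at 17 and 107, and Kat2b, an acetyltransferase gene, at 10 and 361. Likeness here rests on 4 libraries and describes peak calls only.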

How the data were processed

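Peak lists from 4 CUT&RUN libraries, 1 a group, were analysed, with groups taken from the sample titles. Bowtie2, MACS2 and mm10 are named in the submitters' processing notes. For versions, settings, duplicate handling and the control library, the labels were silent (not given in the sources used here). Each peak is named after its own library, so calling was per library. The deposited columns hold the authors' fold enrichment (a ratio over the local background), the authors' -log10 p and -log10 q, the summit offset (0-based in the file) and a deposited score that repeats the -log10 q and was not used. The lowest -log10 q was 1.77 in KO PHF2 and 1.40 in Ctrl PHF2. Signal tracks and reads were not used here.

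In MACS2 the fold is the pileup over the background, each plus 1, and the p is a Poisson tail probability. Solving both gave whole tags, within 0.005, times a factor of 0.609 for all 84 distinct value pairs in KO PHF2 and 0.649 for all 309 in Ctrl PHF2. The best other factors gave 61.9% and 49.8%. More than 1 whole-tag solution existed for 1 of the KO pairs and 13 of the Ctrl pairs. There, the closest to a whole number with a background not under the lowest was taken. On simulated peaks 100% of tags were recovered in lists of 161 and 1621 peaks. These were made with the same formulas, so they check the solving and not how the deposited values were made. The library size ratio assumes the same fragment length in both.

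Starts were written 1-based, and overlap meant at least 1 bp. Genes came from RefSeq for GRCm38.p6, starts and strands from its promoter windows. Promoter windows matched 5 of the 6 members, and Plpp1 is placed by its gene ends. Genes without a window are also absent from the G+C, motif and summit position counts. The rule for naming was all members, pathway genes with a KO PHF2 peak or among the 12 highest in Ctrl, and the 5 genes most like Plpp3. Upstream and comparison peaks, and Mogat1, were named after their values were seen. The members and lists were chosen with earlier results of these data known. Alternatives were other windows, the summit alone, stricter q and p thresholds, merged peaks, other overlap rules and other gene sets. Software was pandas 2.3.3, SciPy 1.17.1, NumPy 2.4.6 and matplotlib 3.10.9 under Python 3.11.15.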

Additional observations from a re-analysis of the deposited data

How the results depend on the processing

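Of 61 alternatives, 56 stayed within their limits and 5 moved. Many of the 56 could hardly have moved, so they do not test the counts. Plpp3 and Plpp1 were chosen for high peaks, with -log10 q of 11.5 in KO and 27.9 in Ctrl at Plpp3 and 16.3 at Plpp1. Plpp3 also had only 1 peak in each PHF2 list, so choosing its highest peak by another measure changes nothing. The counts of members and of peaks at them, 1 in KO PHF2 and 2 in Ctrl PHF2, did not move with the gene body alone, 1 kb or 10 kb around it, gene ends only, the summit alone, a -log10 q of at least 3, a -log10 p at or above that of the weakest KO PHF2 peak, or merged peaks. The overlap at Plpp3 held with a reciprocal overlap of 50%, with the KO summit inside the Ctrl peak and with a gap of 1 kb allowed. Within 1 kb of a gene end, 3 in place of 5 pathway genes had a Ctrl PHF2 peak, with Cds2 and Sphk2 dropped. The Cds2 peak is near an annotated start inside the gene. The share of genes with a KO PHF2 peak was 0.428% over all genes of the table and 2.36% over genes at least as long as the members' median. The same shares for Ctrl PHF2 were 4.23% and 16.2%, and the alternative gene sets themselves make this change. No paired analysis was possible because there was 1 library a group, which also means that none could be left out. Read depth is unknown, and the summit tags limit each value to its counting interval.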
